A study of Homo sapiens with 12 samples.

Results

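A set of 43 interferon-stimulated genes was followed through the RNA of breast tumour cells grown in mice on a fasting-mimicking diet or a standard diet. They were taken by symbol from the deposited gene counts, where all 43 were found among 26475 genes, and all 43 had enough counts to be tested among the 15461 genes that did. The list is one of genes known to respond to interferon, and no measured value of these libraries enters the rule. It was still chosen with earlier results of these data known, as were the other gene lists used below. Of the 43 members, RSAD2 rose in the CD24-low cells of tumours from mice on the fasting-mimicking diet, and most others differed by little. That its diet effect differed from the one in CD24-high cells was not shown by edgeR. Under that diet 39 of the 43 had lower estimates in CD24-low than in CD24-high cells, against 56.9% of all genes. Of these UBE2L6 was called lower, against 1.84% of all genes.

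The cells were SUM159 (SUM159PT), a human triple-negative breast cancer line, injected into female NOD scid gamma mice that were 8 weeks old. NOD scid gamma mice lack T, B and natural killer cells but keep their own myeloid and stromal cells. Cells from the tumours were sorted by the human surface proteins CD44 and CD24: all were CD44-positive, and they were parted into a CD24-low population, which is held to be rich in cancer stem cells, and a CD24-high population, taken as more differentiated. The 4 groups of 3 libraries were FMD LO (fasting-mimicking diet, on 4 days running of each week, CD24-low), FMD HI (the same diet, CD24-high), CTR LO (standard diet, CD24-low) and CTR HI (standard diet, CD24-high). All groups share the line, the host strain and the CD44 gate, and the line is a single established line. The labels do not say that the 3 libraries of a group came from separate animals, so p-values measure the spread between these samples, which may be technical.

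Interferons are secreted proteins that signal through paired receptors and the kinases JAK1, TYK2 and JAK2. Types I and III lead to ISGF3, a complex that holds STAT2 and IRF9 and binds the interferon-stimulated response element (ISRE), and type II acts through the GAS element. The target genes encode sensors of foreign RNA, enzymes and binding proteins that block viral replication, and regulators of the pathway itself, and many cancer lines keep a basal level of them without added interferon.

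The promoters of many of these genes hold the core of the response element. Among the 43, 33 had an entry in the RefSeq promoter table of GRCh38.p14, which holds 250 bases before to 50 bases after each annotated start. The core of the ISRE (GAAANNGAAA, either strand, overlapping matches counted) was in a promoter of 22 of these 33 members, or 66.7%, against 4.38% of all 27305 genes with an entry. The GAS core (TTCNNNGAA, a palindrome, either strand) was in 10 of the 33, or 30.3%, against 9.38% of all genes. No ISRE core was found in the windows of DDX58, STAT2, IRF1, IRF9, OAS1, UBE2L6, HERC6, CMPK2, SAMD9L, XAF1 and SP110, and DHX58, IRF7, IFIT2, OAS2, OASL, MX2, GBP2, USP18, IFITM2 and TRIM22 had no entry. The promoters of 4 members are shown, those of the described members that hold the core and had the smallest adjusted p in the comparisons, each as the 250 bases before its start, on the strand of the gene, with the ISRE core in capitals. RSAD2, the antiviral enzyme viperin, has a match at the second of its 2 annotated starts (chr2:6877527-6877776, plus strand), BST2, the tetherin that holds budding virus at the cell surface, has 2 overlapping matches (chr19:17405631-17405880, minus strand), IFI6, an inner-membrane protein that protects against cell death, has 3 (chr1:27672193-27672442, minus strand), and IFITM3, which blocks virus entry from endosomes, has 2 (chr11:320861-321110, minus strand). The RSAD2 match is on the opposite strand, so it reads as the reverse complement.
RSAD2: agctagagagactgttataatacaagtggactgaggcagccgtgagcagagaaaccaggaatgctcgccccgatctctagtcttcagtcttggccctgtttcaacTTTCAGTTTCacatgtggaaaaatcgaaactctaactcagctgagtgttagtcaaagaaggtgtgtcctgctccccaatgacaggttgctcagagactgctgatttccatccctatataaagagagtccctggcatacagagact
BST2: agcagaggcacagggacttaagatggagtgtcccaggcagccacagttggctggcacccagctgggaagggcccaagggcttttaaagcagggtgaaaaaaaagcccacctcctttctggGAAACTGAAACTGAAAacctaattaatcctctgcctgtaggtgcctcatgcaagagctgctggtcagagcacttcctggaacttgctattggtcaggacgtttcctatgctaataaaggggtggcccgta
IFI6: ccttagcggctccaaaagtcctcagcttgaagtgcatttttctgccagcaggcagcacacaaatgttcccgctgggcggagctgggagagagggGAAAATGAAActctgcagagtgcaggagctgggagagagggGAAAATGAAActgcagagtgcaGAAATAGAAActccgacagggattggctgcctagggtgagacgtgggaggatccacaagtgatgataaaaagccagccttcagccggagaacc
IFITM3: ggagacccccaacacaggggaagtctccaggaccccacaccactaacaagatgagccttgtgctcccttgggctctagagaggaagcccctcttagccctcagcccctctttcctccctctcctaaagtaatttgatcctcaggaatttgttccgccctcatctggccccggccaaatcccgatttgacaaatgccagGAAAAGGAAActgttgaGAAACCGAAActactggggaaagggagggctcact
A match is a match of letters and no measurement of binding.

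Some of the members lie near each other in the genome, though the share over all genes was not counted. Of the 43, 24 have another member within 250 kb: IFIT1, IFIT2, IFIT3 and IFIT5 on chromosome 10, OAS1, OAS2 and OAS3 on chromosome 12, IFITM1, IFITM2 and IFITM3 on chromosome 11, MX1 and MX2 on chromosome 21, GBP1 and GBP2 and also IFI44 and IFI44L on chromosome 1, HERC5 and HERC6 on chromosome 4, SAMD9 and SAMD9L on chromosome 7, PARP9 and PARP14 on chromosome 3, and RSAD2 and CMPK2 on chromosome 2. RSAD2 (chromosome 2, 6865885 to 6898239) overlaps the start of CMPK2 (chromosome 2, 6840553 to 6866635), which lies on the other strand, and the counts used are those of 1 strand. Some neighbours are near copies: of the transcript stretches of 50 bases, 34.1% in IFITM2, 32% in IFITM1 and 17.4% in IFITM3 also occur in another gene, as do 43.6% in IRF9, with its read-through neighbour AL136295.5, and 23.4% in USP18, with USP41. Counts of these genes are uncertain, since reads from a shared stretch could be lost or split. How many reads this affected was not measured, and the annotation release behind the counts is not given in the sources used here.

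Counted reads per library ran from 17736610 to 47587142, with no FMD LO library above 18579816 and none of the other 9 below 29049144. VIM, CD44, KRT8, KRT18 and CAV1, listed for the tumour line, were at least 273 CPM in all 12 libraries. AXL was at least 170 CPM and EGFR at least 56.5 CPM. CD44 was also part of the sort. ESR1, the oestrogen receptor that a triple-negative line should lack, was at most 0.75 CPM. CPM, the usual scaling of counts to the library total, was computed with totals adjusted by TMM. FMD LO stood apart in leukocyte markers: 10 of the 13 tested (18 listed) were higher in FMD LO than in CTR LO by edgeR, against 12% of all genes. The summed leukocyte markers were 198 to 239 CPM in FMD LO, 42.6 to 61.9 in FMD HI, 23.7 to 40.1 in CTR LO and 31.1 to 46.9 in CTR HI. TYROBP and NKG7 were at 0 in all FMD LO libraries, while PTPRC (CD45) stood at 44.7 to 59.9 CPM there and at most 4.34 CPM in the other 9 libraries. Of 12 fibroblast markers 6 were higher in FMD LO than in CTR LO, and of 9 endothelial markers 2, against the same 12% of all genes. Whether mouse reads were removed before alignment is not given in the sources used here, and in a bulk sample fewer cells of a type and less RNA per cell cannot be told apart.

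The genes were transcribed at very different levels in all groups. Per length, as RPKM, which is CPM divided by the length of the merged exons in kilobases (GENCODE release 29), IFITM3 was highest with a mean of 689 over the 12 libraries, followed by BST2 with 297, IFITM1 with 238, LGALS3BP, a secreted glycoprotein, with 215, and IFI6 with 189. ISG15, the ubiquitin-like protein that is joined to other proteins, had 91.4 RPKM. The sensors stood near the low end, DDX58 (RIG-I) at 3.98, IFIH1 (MDA5) at 3.47 and DHX58 (LGP2) at 3.35. The lowest were MX2 with 0.892, RSAD2 with 0.454, HERC5 with 0.317 and CMPK2 with 0.107. By this measure membrane factors that act at entry and exit of virus held 3 of the first 4 places. RSAD2, the gene with the largest difference between groups, was the third from last. The order depends on the merged length, which holds the exons of all annotated transcripts of a gene. By mean CPM, IFITM3 led with 929, then LGALS3BP with 771, BST2 with 332, IRF1 with 289 and IFITM1 with 257.

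IFITM3 stood at 902, 783 and 918 CPM in FMD LO, 1054, 915 and 1226 in FMD HI, 718, 894 and 1060 in CTR LO and 754, 916 and 1009 in CTR HI. LGALS3BP stood at 769, 786 and 717 CPM in FMD LO, 856, 806 and 879 in FMD HI, 792, 623 and 803 in CTR LO and 752, 645 and 825 in CTR HI. IRF1, a transcription factor that type II interferon induces, had 263, 263 and 186 CPM in FMD LO, 282, 372 and 221 in FMD HI, 396, 250 and 296 in CTR LO and 366, 283 and 292 in CTR HI. In IFITM3, LGALS3BP and IRF1 the diets overlapped in both populations. BST2 and IFITM1, also among the most abundant by CPM, overlapped between diets in CD24-low cells but not in CD24-high cells. BST2 had 343, 423 and 372 CPM in FMD HI, against 331, 292 and 314 in CTR HI. IFITM1 had 284, 273 and 368 CPM in FMD HI, against 174, 230 and 261 in CTR HI. Neither was called there by edgeR.

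**Figure D1:**
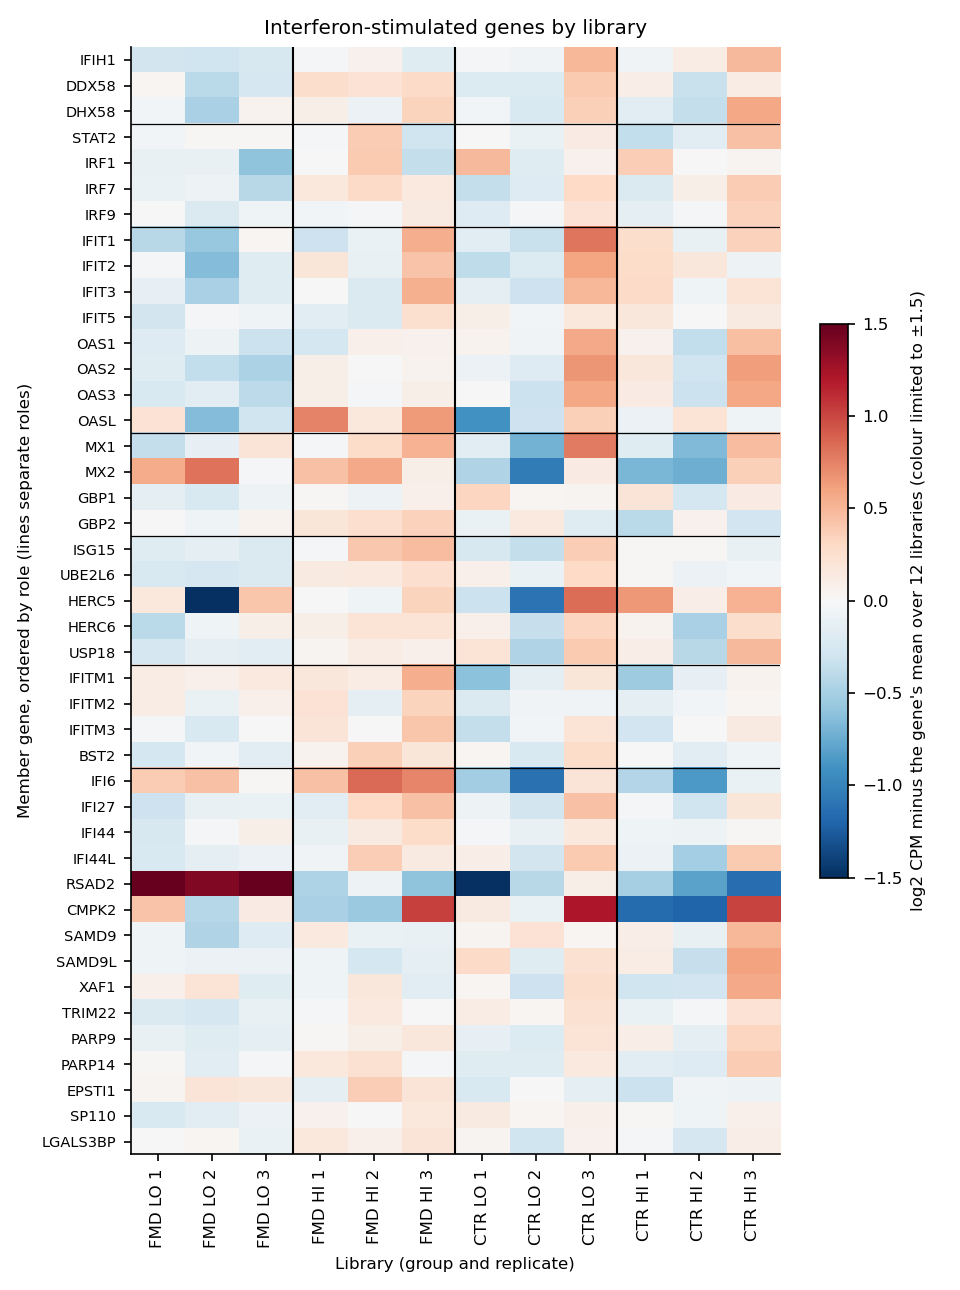
Difference of each member's log2 CPM from its mean over the 12 libraries (colour, limited to 1.5 either way), with members in rows ordered by role and libraries in columns from FMD LO to CTR HI. RSAD2 is high in the 3 FMD LO libraries, and the third replicates of CTR LO and CTR HI are high for most members.

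The control groups held 1 library each in which most members were high. The mean log2 CPM over the 43 members was 5.17, 5.06 and 5.18 in FMD LO, 5.25, 5.32 and 5.41 in FMD HI, 5.06, 4.97 and 5.51 in CTR LO, and 5.13, 4.99 and 5.43 in CTR HI. CTR LO replicate 3 was the highest of its group for 36 of the 43 members, against 27.2% of all genes tested, and CTR HI replicate 3 for 30 of 43, against 36.6%. The highest FMD HI library, replicate 3, led for 22 of 43 (32.9% of all genes), and in FMD LO no library led for more than 18. The within-group SD of log2 CPM was larger in the control groups than in the fasting-mimicking groups for 36 of 43 members, against 49.4% of all genes. Its median over members was 0.17 in the fasting-mimicking groups and 0.31 in the control groups. RSAD2, CMPK2, HERC5, MX1 and MX2 varied most between replicates. MX1, a GTPase that traps viral particles, shows the pattern: it had 30.9, 36.2 and 45.2 CPM in FMD LO, 39.1, 47.7 and 56.9 in FMD HI, 35.6, 24.1 and 67.7 in CTR LO and 34.8, 25 and 54.4 in CTR HI.

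The first comparison set the 2 diets against each other in CD24-low cells, the stem-like population. RSAD2 rose there, and none of the other 42 members passed. RSAD2 stood at 4.69, 3.30 and 10.7 CPM in FMD LO, against 0.228, 0.941 and 1.34 CPM in CTR LO. All 3 FMD LO libraries lay above all CTR LO libraries. They also lay above the CD24-high libraries, which had 0.913, 1.20 and 0.832 CPM in FMD HI and 0.892, 0.724 and 0.572 in CTR HI. The log2 fold change was 2.93 ± 0.55 (SE; edgeR quasi-likelihood test with Benjamini-Hochberg adjustment, adjusted p = 0.00298), and group means were 6.22 ± 3.93 CPM in FMD LO and 0.835 ± 0.562 CPM in CTR LO (SD, n = 3 each). The gene kept its call under all 19 alternatives, with log2 fold changes of 2.27 to 3.50 and adjusted p up to 0.0319. That is 1 of 43 members called, against 16.4% of all genes tested, 12% higher and 4.33% lower in FMD LO. Its neighbour CMPK2, a mitochondrial nucleotide kinase that interferon induces together with it, had 0.534, 0.294 and 0.434 CPM in FMD LO and 0.435, 0.370 and 0.921 CPM in CTR LO, which overlapped (log2 fold change -0.44 ± 0.68, adjusted p = 0.70). Leukocyte markers were highest in the same 3 libraries (above), and their part in the RSAD2 result was not tested.

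**Figure D2:**
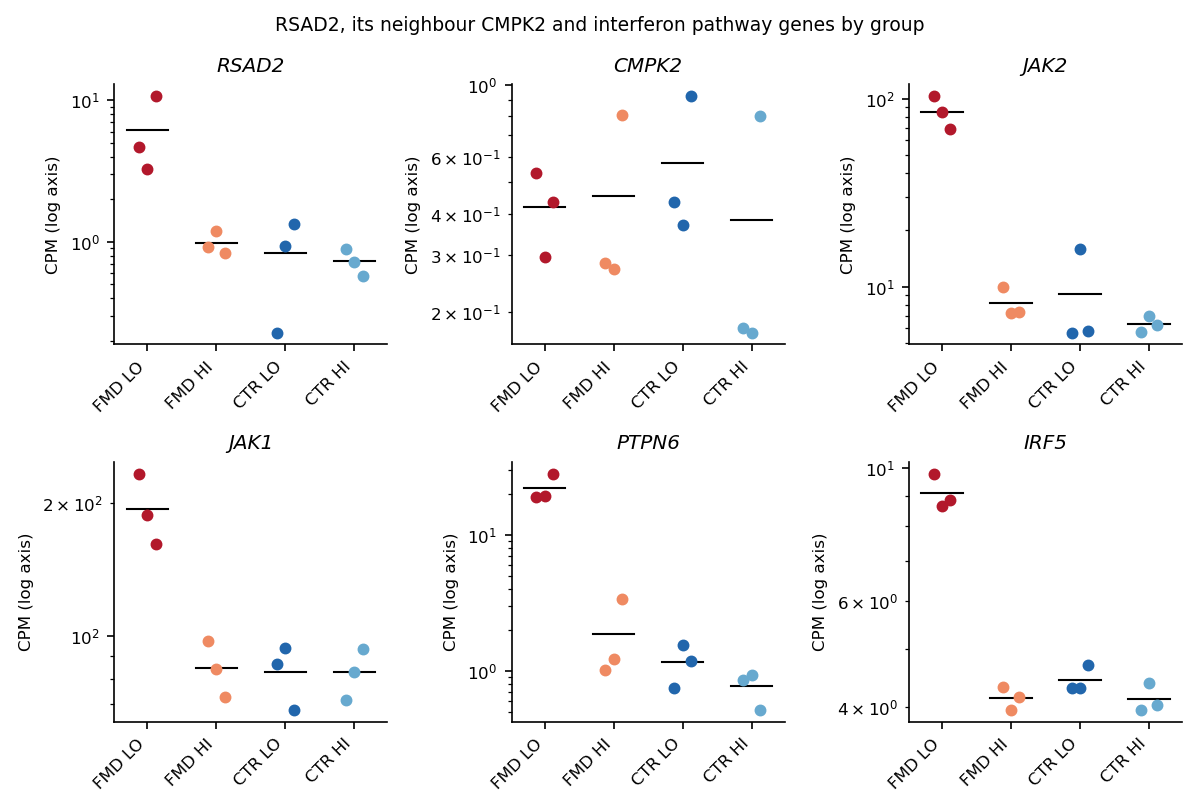
CPM of RSAD2, CMPK2 and 4 pathway genes in each library (points, log axes) with group means (lines) for FMD LO, FMD HI, CTR LO and CTR HI. RSAD2, JAK1, JAK2, PTPN6 and IRF5 have all 3 FMD LO libraries above every other library, and CMPK2 does not.

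None of the remaining members passed, and more had values below 0 than above it. The log2 fold change was below 0 for 32 of 43 members, against 53.2% of all genes, and its median was -0.19 over the members and -0.03 over all genes. This rested on CTR LO replicate 3: without it the members' median was 0.02, with 24 above 0 and 19 below. Libraries of the 2 groups did not overlap for 2 members that were higher in FMD LO (19.7% of all genes) and 7 that were lower (17.8% of all genes). By role, all 3 RNA sensors, all 4 transcription factors, 7 of 8 in the group of IFIT and OAS proteins, and all 5 genes of ISG15 and its conjugation were below 0, while 2 of 4 GTPases and 2 of 4 membrane factors were above it. UBE2L6, the E2 enzyme that conjugates ISG15, had 56.7, 55.6 and 57.2 CPM in FMD LO, against 70.0, 61.9 and 82.0 in CTR LO. Its 3 FMD LO libraries lay below all CTR LO libraries, at a log2 fold change of -0.33 ± 0.11 that missed the threshold (adjusted p = 0.0564). IFI6 had 195, 204 and 153 CPM in FMD LO, against 105, 69.3 and 172 in CTR LO, which overlapped through CTR LO replicate 3 (0.68 ± 0.29, adjusted p = 0.131), and it passed when that library was left out. MX2 had 16.0, 19.0 and 10.6 CPM in FMD LO, against 7.94, 5.21 and 11.8 in CTR LO, which overlapped. Its log2 fold change was 0.86 (edgeR, adjusted p = 0.114). RSAD2 was the 1 member of 43 with a log2 fold change of at least 1 either way, against 11.3% of all genes.

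**Figure D3:**
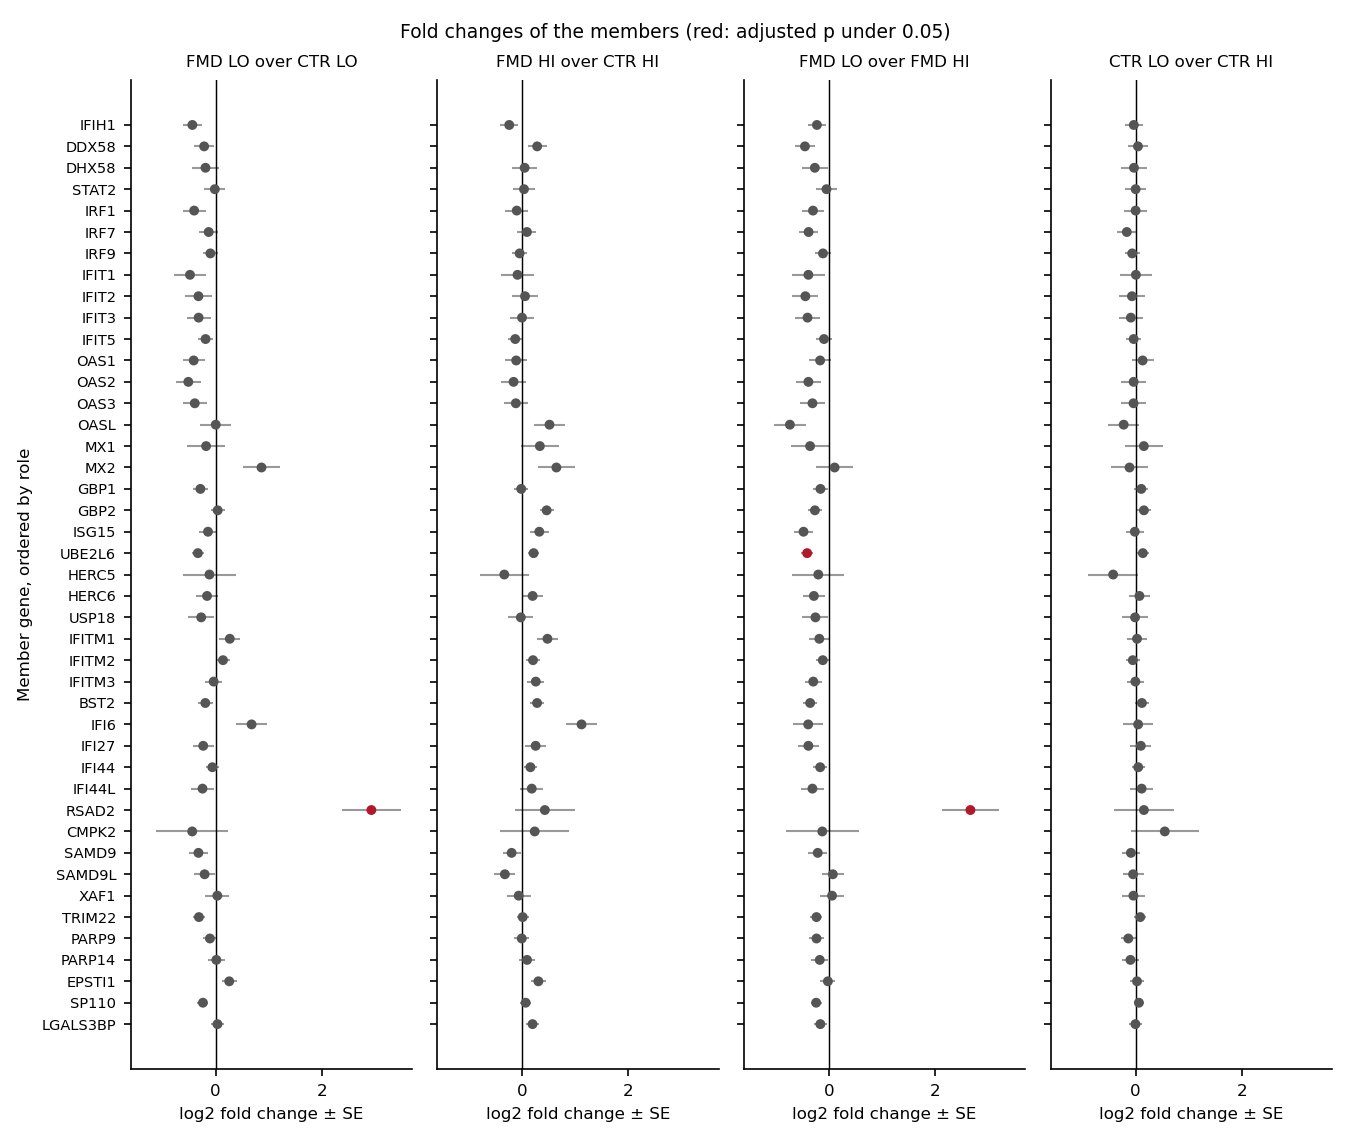
Log2 fold change (points) and its SE (bars) of the 43 members in 4 comparisons, with members called at an adjusted p under 0.05 in red. RSAD2 stands apart in both comparisons of FMD LO, UBE2L6 is called in FMD LO over FMD HI, and IFI6 has the largest value in FMD HI over CTR HI.

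In CD24-high cells the same comparison of diets called no member, and no gene at all (0% of 15461) by edgeR. Unadjusted p was under 0.05 for 4 members, all higher in FMD HI, against 3.24% of all genes higher and 3.5% lower. IFI6 had 204, 271 and 249 CPM in FMD HI, against 111, 82.9 and 140 in CTR HI, with all FMD HI libraries above all CTR HI libraries. Its log2 fold change was 1.12 ± 0.29 with an adjusted p of 0.439 by edgeR, and DESeq2 called it (adjusted p = 0.0253), 1 member against 0.495% of the genes that tool adjusted. GBP2, a GTPase of the guanylate-binding family, had 103, 108 and 115 CPM in FMD HI, against 68.2, 94.6 and 74.1 in CTR HI (0.46 ± 0.13, adjusted p = 0.50). IFITM1, which blocks virus entry at the cell surface, had 284, 273 and 368 CPM in FMD HI, against 174, 230 and 261 in CTR HI (0.47 ± 0.20, adjusted p = 0.683). Both pairs of groups were apart, though neither passed the adjustment. Libraries did not overlap for 6 members, all higher in FMD HI, against 4.48% of all genes higher and 4.72% lower. The median log2 fold change was 0.09 over the members, with 16 of 43 below 0 against 51% of all genes, and -0.004 over all genes. The members' median was 0.005 without CTR HI replicate 2, 0.24 without CTR HI replicate 3 and 0.16 without FMD HI replicate 2. RSAD2 itself stood at 0.42 ± 0.56 (adjusted p = 0.985).

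Under the fasting-mimicking diet, CD24-low cells differed from CD24-high cells in the opposite way for RSAD2 and for UBE2L6. RSAD2 rose, with 4.69, 3.30 and 10.7 CPM in FMD LO, against 0.913, 1.20 and 0.832 in FMD HI, and the libraries did not overlap (log2 fold change 2.67 ± 0.54, adjusted p = 0.00452). UBE2L6 fell, with 56.7, 55.6 and 57.2 CPM in FMD LO, against 73.2, 73.5 and 78.8 in FMD HI, again without overlap (-0.41 ± 0.11, adjusted p = 0.0236). The call of UBE2L6 was lost without any 1 of the 6 libraries compared, at adjusted p from 0.0565 to 0.101. These 2 of 43 stand against 14% of all genes called, 12.2% higher and 1.84% lower in FMD LO. Replicate numbers paired the samples of this comparison, by the correlations given with the processing. With the number as a block within each diet, 15 members were called, RSAD2 higher and 14 lower, against 27.2% of all genes, 16.8% higher and 10.3% lower. The 14 were UBE2L6, IRF7, OAS2, BST2, MX1, IFI27, IFITM3, OAS3, DDX58, GBP2, IFI44L, OASL, IRF1 and IFI6, with log2 fold changes in that fit from -0.76 ± 0.22 in OASL to -0.26 ± 0.08 in GBP2.

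Most of the small differences between these populations ran one way. The log2 fold change was below 0 for 39 of 43 members, against 56.9% of all genes, with a median of -0.24 over the members and -0.06 over all genes. Libraries did not overlap for 17 members lower in FMD LO (13.1% of all genes) and for 1 that was higher (18.3% of all genes). ISG15 had 74.5, 76.4 and 72.9 CPM in FMD LO, against 83.5, 112 and 117 in FMD HI (-0.48 ± 0.18, adjusted p = 0.0951). BST2 had 274, 320 and 296 CPM in FMD LO, against 343, 423 and 372 in FMD HI (-0.35 ± 0.14, adjusted p = 0.112). Each was lower in all 3 FMD LO libraries than in any FMD HI library, and neither passed without the block; with it BST2 did (adjusted p = 0.0123) and ISG15 did not (0.0688). All 3 sensors, all 4 transcription factors, all 8 IFIT and OAS genes, all 5 genes of ISG15 conjugation and all 4 membrane factors were below 0, and the 4 members above it were RSAD2, MX2, SAMD9L and XAF1. Leukocyte, fibroblast and endothelial markers moved with the same contrast (10 of 13, 6 of 12 and 5 of 9 tested were higher in FMD LO, against 12.2% of all genes). Of 7 markers of the tumour line, 5 were below 0 in it, with a median log2 fold change of -0.40, and KRT18 fell (-0.44 ± 0.12, adjusted p = 0.0213). Those markers had a median of -0.32 in FMD LO over CTR LO, again with 5 of 7 below 0 and KRT18 called lower (adjusted p = 0.0266). The part of these marker differences in the lower values of the members was not tested.

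**Figure D4:**
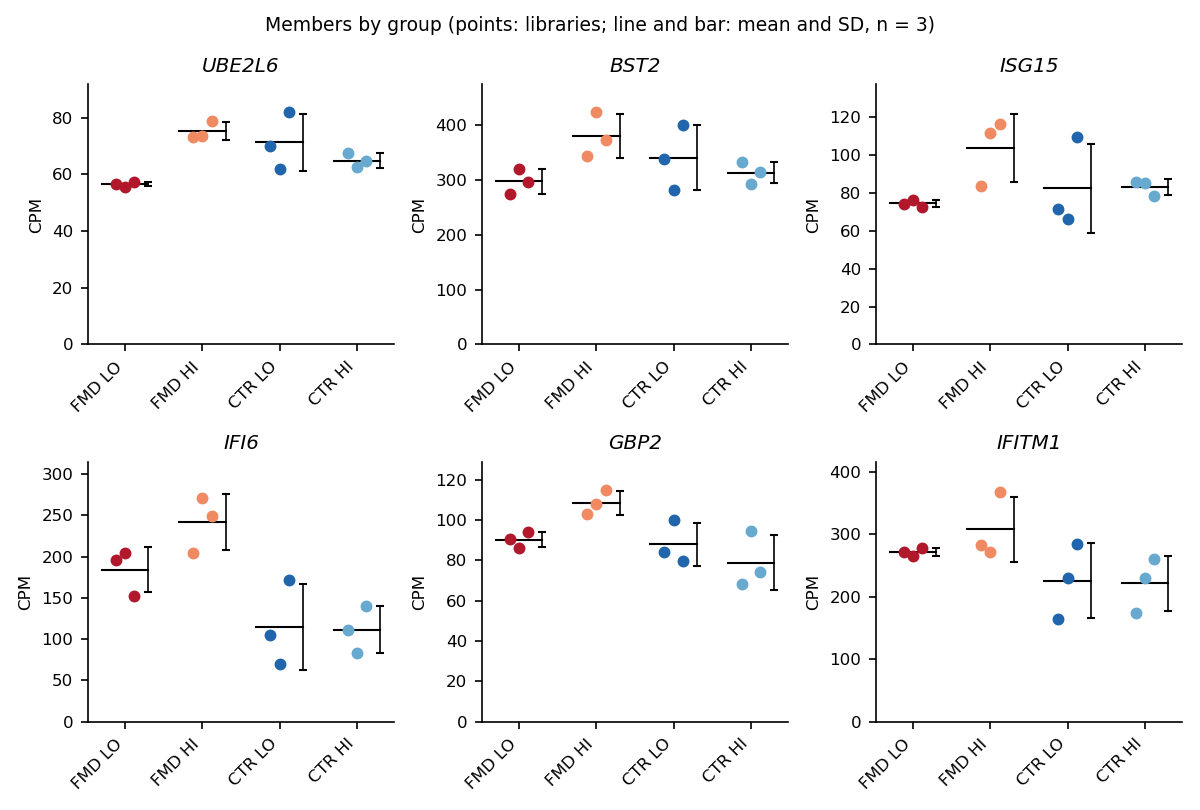
CPM of 6 members in each library (points) with the mean and SD of each group (line and bar, n = 3) for FMD LO, FMD HI, CTR LO and CTR HI. UBE2L6, BST2 and ISG15 are lower in FMD LO than in FMD HI, and IFI6, GBP2 and IFITM1 are higher in FMD HI than in CTR HI.

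**Figure D5:**
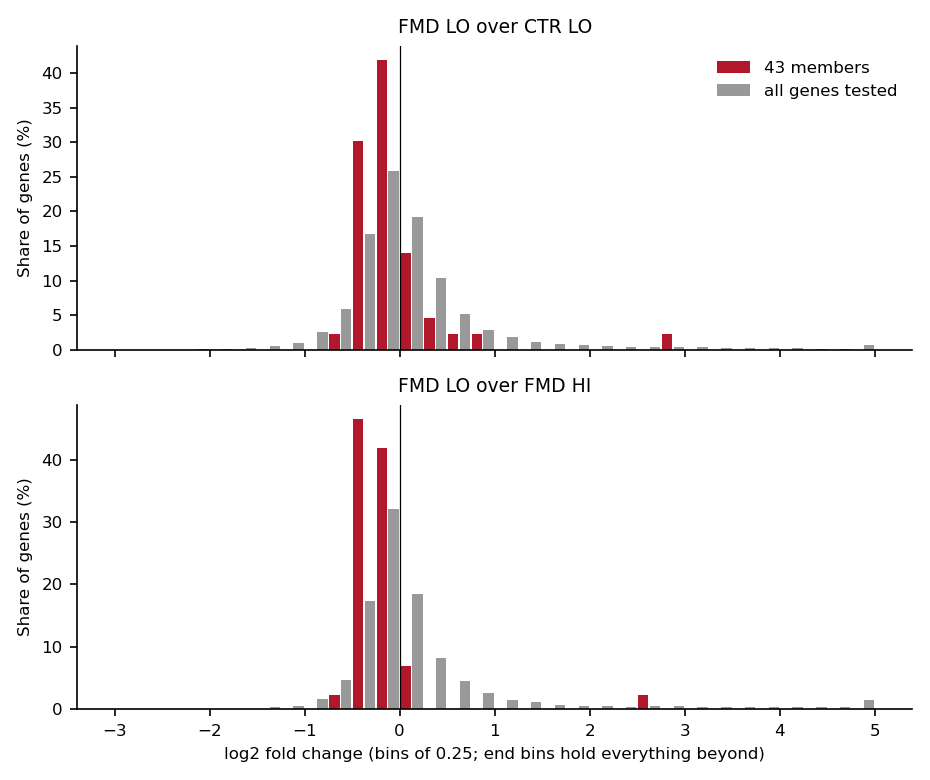
Share of the 43 members (red) and of all 15461 genes tested (grey) in each bin of log2 fold change, for FMD LO over CTR LO (top) and FMD LO over FMD HI (bottom). Members gather just below 0, with 32 and 39 of 43 below it, and RSAD2 is the 1 member far to the right in both.

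Under the standard diet no member was called between CD24-low and CD24-high cells, and no gene passed (0% of 15461). By edgeR no member had an unadjusted p under 0.05, against 0.589% of all genes, and DESeq2 called no gene either. UBE2L6 had 70.0, 61.9 and 82.0 CPM in CTR LO, against 67.5, 62.5 and 64.6 in CTR HI (0.14 ± 0.11, adjusted p = 1). GBP2 had 84.2, 100.1 and 79.8 CPM in CTR LO, against 68.2, 94.6 and 74.1 in CTR HI (0.16 ± 0.13, adjusted p = 1). PARP9, an ADP-ribosyltransferase family member that acts with interferon signalling, had 31.4, 29.7 and 39.4 CPM in CTR LO, against 36.6, 30.9 and 42.9 in CTR HI (-0.14 ± 0.14, adjusted p = 1). These 3 had the smallest p of the comparison, and the libraries overlapped in each. The libraries were apart for no member, against 3.43% of all genes, and the members' median log2 fold change was -0.003, or -0.19 without CTR LO replicate 3 and 0.12 without CTR HI replicate 3.

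The difference between the diet effect in CD24-low and that in CD24-high cells was tested as an interaction. It called 0 of 43 members by edgeR, against 4.13% of all genes, and 4 had an unadjusted p under 0.05, against 15.2% of all genes. The smallest adjusted p were those of UBE2L6 (-0.55 ± 0.16, adjusted p = 0.0740), RSAD2 (2.51 ± 0.78, adjusted p = 0.107) and BST2 (-0.47 ± 0.19, adjusted p = 0.246). DESeq2 called UBE2L6 and RSAD2, against 6.61% of the genes it adjusted. The block within each diet called UBE2L6, GBP2, BST2 and MX1, all below 0, against 11% of all genes. That block also pairs CTR LO with CTR HI by number, which the rule given with the processing does not pair. The RSAD2 rise in CD24-low cells is therefore not shown by edgeR to differ from the change in CD24-high cells. The interaction was below 0 for 38 of 43 members, against 54.7% of all genes, with a median of -0.27, or -0.05 without CTR LO replicate 3. By group means, FMD LO was lowest of the 4 groups for 31 members and highest for 2, and FMD HI was highest for 23. The same counts were not made over all genes, so they do not show a trait particular to the members.

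Genes that act before the members in the pathway were measured from lists of ligands, receptors, kinases, sensors and negative regulators, of which 57 were in the files and 36 were tested. Little RNA of the interferons themselves was counted. Of 21 ligand genes, 14, IFNB1 among them, had 0 counts in all 12 libraries together, where 3 counts would be 0.00827 CPM, a limit that covers counting error only. IFNL1, a type III interferon and the ligand with enough counts to be tested, had 3, 7 and 6 counts in FMD LO, 4, 24 and 15 in FMD HI, 38, 20 and 76 in CTR LO and 32, 38 and 26 in CTR HI. In CPM both fasting-mimicking groups lay below their controls without overlap, at log2 fold changes of -2.0 ± 0.65 in CD24-low cells (adjusted p = 0.0520) and -1.26 ± 0.58 in CD24-high cells (adjusted p = 0.736). Its near relative IFNL2 had 26 counts in all, 14 of them in CTR LO replicate 3. In that library most members were high, as was IFNL1. In CTR HI replicate 3, where most members were also high, IFNL1 had 0.744 CPM, against 0.952 and 1.31 in the rest of its group. IFNL2 had 2 counts there. A link between the ligands and the members was not tested.

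Of the kinases, JAK2 and JAK1 rose. JAK2, the kinase of the interferon-gamma and many cytokine receptors, rose to 103, 84.7 and 68.6 CPM in FMD LO, against 5.68, 15.8 and 5.79 in CTR LO (log2 fold change 3.24 ± 0.36, adjusted p = 1.13e-04). JAK1, which serves all interferon receptors, rose to 234, 188 and 161 CPM in FMD LO, against 86.5, 94.0 and 68.0 in CTR LO (1.23 ± 0.17, adjusted p = 3.17e-04). Neither group overlapped the other in these genes. PTPN6, the phosphatase SHP-1 that is most abundant in blood cells and dampens receptor signalling, rose to 19.2, 19.5 and 28.4 CPM in FMD LO, against 0.746, 1.55 and 1.19 in CTR LO (4.29 ± 0.44, adjusted p = 5.08e-05). IRF5, a factor downstream of Toll-like receptors, rose to 9.79, 8.66 and 8.84 CPM in FMD LO, against 4.31, 4.30 and 4.69 in CTR LO (1.04 ± 0.15, adjusted p = 3.85e-04). STAT3 rose too (0.60 ± 0.15, adjusted p = 0.0137), though not without FMD LO replicate 1 (0.0618) or CTR LO replicate 1 (0.0615). In all, 7 of 36 rose, against 12% of all genes, with PIAS1 and TLR7 besides these 5. Another 2 of 36 fell, against 4.33% of all genes, IFNGR2 and MB21D1 (the sensor cGAS). The last 4 were named after their values were seen.

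Between FMD LO and FMD HI, 7 of 36 rose, against 12.2% of all genes, and 1, IFNGR2, fell, against 1.84%. JAK2 had 103, 84.7 and 68.6 CPM in FMD LO, against 9.89, 7.20 and 7.33 in FMD HI (3.39 ± 0.36, adjusted p = 8.15e-05), and JAK1 had a log2 fold change of 1.20 ± 0.17 (adjusted p = 3.38e-04). PTPN6 (3.57 ± 0.42, adjusted p = 1.26e-04), IRF5 (1.13 ± 0.15, adjusted p = 1.75e-04) and PIAS1, an inhibitor of cytokine signalling (0.82 ± 0.20, adjusted p = 0.0114), rose as well. No pathway gene passed between the diets in CD24-high cells or between populations under the standard diet. JAK1 and JAK2 thus rose in FMD LO in both comparisons. Of the 43 target genes 1, RSAD2, was called higher in each, against 12% and 12.2% of all genes. A link between the kinases and the target genes was not tested. The leukocyte markers that rose in the same libraries are given above, and their part in the JAK1, JAK2 and PTPN6 values was not tested.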

How the data were processed

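Poly(A) RNA of 12 libraries (4 groups of 3) was sequenced with a stranded TruSeq kit, per the labels' protocols. The authors aligned reads with STAR to hg38, per the submitters' processing notes; which STAR version and annotation release they used, and whether mouse reads were removed, is not given in the sources used here. Raw gene counts were deposited, of which column 4 (reverse strand, the strand the kit reads) entered the tests; the opposite strand held 1.59% to 1.75% of the reads of both strands. Computed from them were TMM-scaled CPM, log2 CPM (prior count 2), RPKM over merged GENCODE exons, and edgeR 4.0.16 quasi-likelihood tests (R 4.3.3; robust, filter by group, 1 coefficient per group, 8 residual degrees of freedom, biological coefficient of variation 0.19), with Benjamini-Hochberg adjustment over all 15461 genes tested and calls under 0.05; 11014 genes were left out. SE is the absolute log2 fold change over the square root of F. No 2 libraries were identical. The test was checked on simulated counts.

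Same-numbered samples deviated together between FMD LO and FMD HI (correlations across genes 0.444, 0.285 and 0.485), so the number pairs that comparison by the rule that each exceed 0.1. It does not pair CTR LO and CTR HI (0.445, 0.522 and 0.0373) or the diets (-0.221 to 0.0824). The source of this pairing is the data, not the labels.

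The members and lists were chosen with earlier results of these data known. Described in every library were members called (or, where none was, the 3 with the smallest p in a comparison), the 5 most abundant by CPM, and up to 5 pathway genes called per comparison; others are named as examples. As alternatives, each library was left out in turn, libraries were thinned to the smallest total, a replicate block was used, the fit held the compared groups alone, DESeq2 1.42.0 replaced edgeR, the count filter was dropped, RLE replaced TMM, and reads of both strands were taken; a replicate block within diet was chosen after seeing the data. Sequences and positions are from RefSeq on GRCh38.p14, where all 43 members matched. A withheld gene is not reported here.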

Additional observations from a re-analysis of the deposited data

Results flagged for a closer look

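The diet effect differed between the 2 populations, by the interaction term in edgeR, for 5 of 36 pathway genes tested and for none of the 43 interferon-stimulated genes, against 4.13% of all genes. As log2 of the diet fold in CD24-low cells minus that in CD24-high cells, JAK2 had 2.87 ± 0.49 (SE, adjusted p = 0.00702), JAK1 1.20 ± 0.24 (adjusted p = 0.0131) and IRF5 1.03 ± 0.21 (adjusted p = 0.0143). PTPN6 had 3.0 ± 0.62 (adjusted p = 0.0183) and TLR7 2.76 ± 0.72 (adjusted p = 0.0480). TLR7 rests on few reads, 0.890, 0.530 and 0.651 CPM in FMD LO, 0.283, 0.0900 and 0.156 in FMD HI, 0.207, 0.134 and 0.208 in CTR LO, and 0.208, 0.345 and 0.429 in CTR HI, and it kept its call in 6 of 19 alternatives. JAK1 and JAK2 kept theirs in all 19. IRF5 lost its call with libraries thinned to equal totals (adjusted p = 0.178) and without FMD LO replicate 1 (0.0513), and PTPN6 lost its call in 5 alternatives, with thinning among them (0.116). Leukocyte markers had an interaction in the same direction in 13 of 13 tested and passed in 6, and their part in these 5 values was not tested.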

How the results depend on the processing

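Of the counts of members called, that between populations under the standard diet stayed at 0 in all 20 alternatives. In FMD LO over CTR LO the 1 member became 2 with the planned replicate block (UBE2L6 added), and 1 to 2 when a library was left out: UBE2L6 was added without CTR LO replicate 2 and IFI6 without CTR LO replicate 3. In FMD HI over CTR HI the 0 became 1 with DESeq2 (IFI6) and stayed 0 with any library left out. In FMD LO over FMD HI the 2 became 15 with the replicate block within diet, stayed 2 with the planned block, and were 1 to 3 when a library was left out. The interaction had 0 members by edgeR, 2 with DESeq2, 4 with the block within diet, and 0 to 1 when a library was left out. The block changed no other call of a member; where pairing is not shown (the diets and the standard-diet populations) samples share only a number. RSAD2 kept its call between FMD LO and FMD HI in all 20 alternatives, at adjusted p up to 0.0274. No direction was reversed among the genes named. RLE scaling moved the median of all genes by less than 0.1. Limits are 3 libraries a group, lower totals in FMD LO, under 1 CPM in most libraries for RSAD2, and human counts that may hold host reads. The interaction compares all 4 groups, so the fit with only the groups compared is its main fit.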
